A study of Mus musculus and Homo sapiens with 10 samples.

Results

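The regions described here were the contigs of the mouse assembly that carry no place on a numbered chromosome. They were taken as every line of the 6 enterocyte files whose sequence name was not a chromosome from 1 to 19, X, Y or MT. This gave 32 contigs among the 54 sequences in those files, with 28923 break ends at 13588 positions over the 6 libraries. By the naming of the GRCm38 assembly, 22 of the contigs were unplaced, with no chromosome known, and 10 were unlocalized, with a known chromosome and no known place on it.

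The study mapped DNA double-strand breaks with in-suspension BLISS, in which break ends are blunted and ligated to an adapter, and the base next to the adapter is read as the place of the break. Enterocytes, which line the villus and take up nutrients, came from the mouse jejunum and had been sorted by Cd73, an ectonucleotidase at the cell surface encoded by Nt5e. The 3 gates were Cd73 high, Cd73 mid and Cd73 negative, with 2 libraries each, labelled M1 and M2. No treatment, age or strain is given in the labels used here, all 6 libraries are untreated as far as the labels say, and the human TK6 libraries of the series were not used. The labels do not say whether M1 and M2 were separate mice, so no p-value here can be read as a spread between mice. The spread between libraries may be technical. Each p-value also rests on counting error and on a spread estimated across the features of the fit. Break ends are DNA, so the cell type could not be set against expressed markers.

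Contigs without a chromosomal place are sequence that was read and assembled but could not be anchored to the chromosome map. They are known for segmental duplications, satellite arrays and pseudogenes, so that many are near-identical to other copies in the genome, and a read from one copy can be aligned to another. On chromosomes such sequence is common in heterochromatin next to centromeres. A change in break ends on a contig therefore cannot be tied to a single chromosomal place, and how reads with several matches were treated is not given in the sources used here.

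In depth, the libraries held 1524479 and 1274750 break ends in the Cd73 high gate, 4762075 and 5165380 in the mid gate, and 13053166 and 12595009 in the negative gate. Mean depth was thus 9.16 times higher in the negative than in the high gate. Depth and gate cannot be told apart in these libraries, and levels are given as break ends per 1000000 of all break ends in the library (EPM). A single break end was worth 0.720 EPM on average in the high gate, 0.202 EPM in the mid gate and 0.0780 EPM in the negative gate. Across chromosomes 1 to 19 and X, the ratio of mean EPM in Cd73 high to that in negative libraries ran between 0.961, on chromosome 19, and 1.03, on chromosome X.

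The first question was whether the contigs as a whole took a larger share of break ends with the Cd73 gate. They held 1037 and 1225 EPM in the Cd73 high libraries, 753 and 895 EPM in the mid libraries, and 650 and 721 EPM in the negative libraries. Both high libraries lay above all others, and both mid libraries above both negative ones. In each gate M2 held more than M1. The means were 1131 ± 133 EPM in high, 824 ± 100 EPM in mid and 686 ± 50.3 EPM in negative libraries (SD, n = 2 each). The high gate exceeded the negative gate by 446 EPM, a ratio of 1.65, and the mid gate exceeded it by 139 EPM, a ratio of 1.20. The difference of mid from negative was 67.9 EPM without mid M2 and 210 EPM without mid M1. Contigs were a small part of each library in every gate, with 0.113% of all break ends in the high gate, 0.0824% in the mid gate and 0.0686% in the negative gate. These sums are a description, and no test was made of them.

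In raw numbers the contigs held 1581 and 1562 break ends in the Cd73 high libraries, 3588 and 4624 in the mid libraries, and 8485 and 9083 in the negative libraries. The negative gate thus held 5.59 times the contig break ends of the high gate, against 9.16 times the break ends in all. The other small compartments are given for scale. Chromosome Y held 323 and 342 EPM in Cd73 high, 296 and 309 EPM in mid, and 274 and 268 EPM in negative libraries. Its ratio of high to negative was 1.23, smaller than that of the contigs. Mitochondrial DNA held 186 and 327 EPM in high, 110 and 113 EPM in mid, and 89.4 and 55.4 EPM in negative libraries, a ratio of 3.54. All 3 compartments were thus ordered alike, with no overlap between the high and negative gates.

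**Figure D1:**
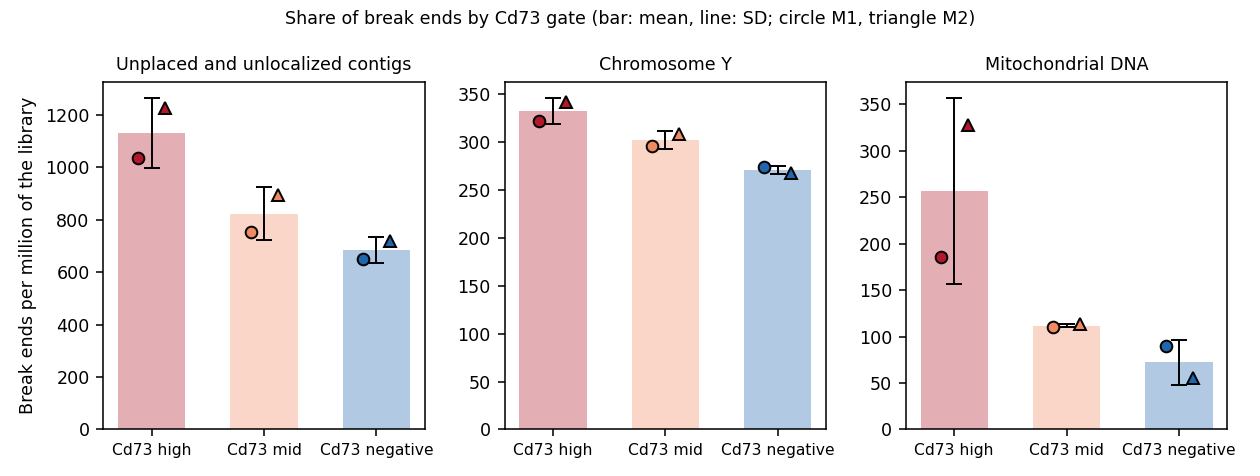
Break ends per 1000000 of each library on the contigs (left), chromosome Y (middle) and mitochondrial DNA (right), by Cd73 gate, each axis starting at 0. Bars are means of 2 libraries, lines are SDs, and points are the libraries. On the contigs both Cd73 high libraries, at 1037 and 1225, lie above both mid libraries, which lie above both negative libraries, at 650 and 721.

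The contigs were far from equal in how many break ends they held. In all, 25 of the 32 held break ends in each of the 6 libraries. GL456212.1, GL456382.1 and GL456354.1 held 0 in both Cd73 high libraries, which allows up to 1.97 and 2.35 EPM there (3 break ends per library, counting error only). These contigs held at most 0.383 EPM in any other library, so no difference was detectable at this depth. JH584304.1 held the most, 10532 break ends over the 6 libraries and 35.6% of the mean contig EPM. Per kilobase between its first and last break end it held 3.68 EPM in high, 2.76 EPM in mid and 2.39 EPM in negative libraries. GL456392.1 was denser, with 8.17 EPM per kilobase in high, 4.54 in mid and 2.96 in negative libraries. The unlocalized contig GL456233.1, assigned to chromosome X, was far sparser, with 0.175, 0.158 and 0.169 EPM per kilobase in high, mid and negative libraries. Chromosomes 1 to 19, X and Y together held 0.375 EPM per kilobase in each gate. The densest contigs thus lay well above this pooled chromosomal level, and GL456233.1 below it. Chromosome X itself held 0.145, 0.143 and 0.141 EPM per kilobase in high, mid and negative libraries, less than GL456233.1.

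To ask which contigs carried the difference, break ends per contig were tested in a single fit with the 100 kb bins of chromosomes 1 to 19, X and Y, with edgeR's quasi-likelihood test and Benjamini-Hochberg adjustment over all features. Of the 32 contigs, 23 had enough break ends to be tested, 19 unplaced and 4 unlocalized. The 9 others held between 3 and 33 break ends in all. In Cd73 high against negative libraries, 6 contigs rose and 0 fell, where 0.0557% of the 25116 features rose and 0.00398% fell. These 6 were among 14 features that rose, and the other 8 were chromosomal bins. At an unadjusted p under 0.05, 7 contigs were higher and 0 lower, where 10.4% of all features lay in either direction. DESeq2 likewise called 6 contigs higher and 0 lower. The median log2 fold change was 0.14 over the 23 contigs, 17 of them positive, and 0.01 over all features.

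GL456389.1 had the largest fold change among the contigs that rose. It held 110 and 104 break ends in the Cd73 high libraries, 161 and 245 in the mid libraries and 282 and 354 in the negative libraries. That is 72.2 and 81.6 EPM in high, 33.8 and 47.4 EPM in mid, and 21.6 and 28.1 EPM in negative libraries. The gates did not overlap, and the lowest high library lay above the highest mid library. The log2 fold change of high against negative was 1.60 (SE 0.15, adjusted p = 2.26e-11 by edgeR). The negative gate held 2.97 times the raw break ends of the high gate, against 9.16 times the depth.

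GL456383.1 held 124 and 155 break ends in the Cd73 high libraries, 247 and 320 in the mid libraries, and 497 in both negative libraries. These came to 81.3 and 122 EPM in high, 51.9 and 62.0 EPM in mid, and 38.1 and 39.5 EPM in negative libraries. The gates were again fully ordered, and the high libraries differed most between themselves. The log2 fold change of high against negative was 1.34 (SE 0.13, adjusted p = 6.73e-11 by edgeR).

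GL456392.1 added the most break ends of the contigs that rose. It held 166 and 219 EPM in the Cd73 high libraries, 90.7 and 123 EPM in the mid libraries, and 66.8 and 72.8 EPM in the negative libraries. No library of a gate overlapped another gate. Its log2 fold change was 1.43 (SE 0.21, adjusted p = 2.69e-05 by edgeR), and its mean difference made up 27.5% of the difference over all contigs.

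The 3 other contigs that rose were sparser. GL456396.1 held 32.1 and 36.1 EPM in Cd73 high, 16.8 and 18.2 EPM in mid, and 14.3 and 16.8 EPM in negative libraries. Only its high libraries stood apart, the mid range meeting the negative one (log2 fold change of high against negative 1.10, SE 0.19, adjusted p = 0.000839 by edgeR). GL456390.1 held 40.0 and 45.5 EPM in high, 26.7 and 37.0 EPM in mid, and 20.5 and 25.1 EPM in negative libraries (log2 fold change 0.88, SE 0.17, adjusted p = 0.00978 by edgeR). GL456393.1 held 55.1 and 55.7 EPM in high, 44.5 and 43.6 EPM in mid, and 33.2 and 31.2 EPM in negative libraries, with gaps between the gates wider than the spread within them (log2 fold change 0.76, SE 0.14, adjusted p = 0.00299 by edgeR).

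JH584304.1 held the largest difference in break ends per 1000000 without passing the test. It held 371 and 413 EPM in the Cd73 high libraries, 262 and 325 EPM in the mid libraries, and 233 and 275 EPM in the negative libraries. The high libraries lay above all others, and the mid and negative ranges overlapped. Its log2 fold change of high against negative was 0.60 with an SE of 0.50 (adjusted p = 0.678 by edgeR). The mean difference was 138 EPM, 30.9% of the difference over all contigs. With chromosomal bins of 1 Mb in the fit, its adjusted p was 0.0231 by edgeR.

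The 6 contigs that rose and JH584304.1, 7 chosen after their values were seen, together averaged 895 EPM in Cd73 high, 592 EPM in mid and 458 EPM in negative libraries. They made up 98.0% of the net difference between the high and negative gates. The other 25 contigs averaged 236 ± 24.2 EPM in high, 233 ± 8.57 EPM in mid and 227 ± 7.23 EPM in negative libraries, differences smaller than the spread within the high gate. All 7 were unplaced, as were 19 of the 23 tested contigs. The 22 unplaced contigs together averaged 1007 EPM in high, 704 EPM in mid and 560 EPM in negative libraries, a ratio of high to negative of 1.80. The 10 unlocalized contigs averaged 124, 120 and 125 EPM in high, mid and negative libraries, a ratio of 0.988. Most of this was on GL456216.1 and GL456233.1, with 60.7 and 56.7 EPM in negative libraries. The ratio of 1.80 includes the 7 contigs chosen after their values were seen, and the classes were not tested against each other.

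Several contigs of like abundance did not pass the test. GL456233.1 held 53.8 and 63.5 EPM in Cd73 high, 55.9 and 49.9 EPM in mid, and 58.1 and 55.4 EPM in negative libraries. All 3 gates overlapped, with a log2 fold change of 0.01 (adjusted p = 0.984 by edgeR). GL456216.1, unlocalized on chromosome 4, held 44.0 and 62.0 EPM in high, 47.7 and 66.2 EPM in mid, and 53.1 and 68.3 EPM in negative libraries (log2 fold change -0.24, adjusted p = 0.611 by edgeR). In each gate its M2 library held more than its M1 library. GL456239.1, unplaced, held 40.7 and 44.7 EPM in high, 37.0 and 41.6 EPM in mid, and 35.7 and 31.1 EPM in negative libraries, with no overlap of high and negative but a log2 fold change of 0.32 that did not pass (SE 0.16, adjusted p = 0.469 by edgeR). GL456370.1 averaged 22.2 EPM in high, 23.3 EPM in mid and 23.5 EPM in negative libraries. The largest negative differences after those of GL456216.1 and GL456370.1 were on GL456378.1, GL456387.1 and GL456359.1, each below 10 EPM in all 6 libraries and none past the test. Of the 23 tested contigs, 11 were higher in high than in negative libraries with no overlap and 1 was lower, where 26.1% and 19.4% of all features did so.

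**Figure D2:**
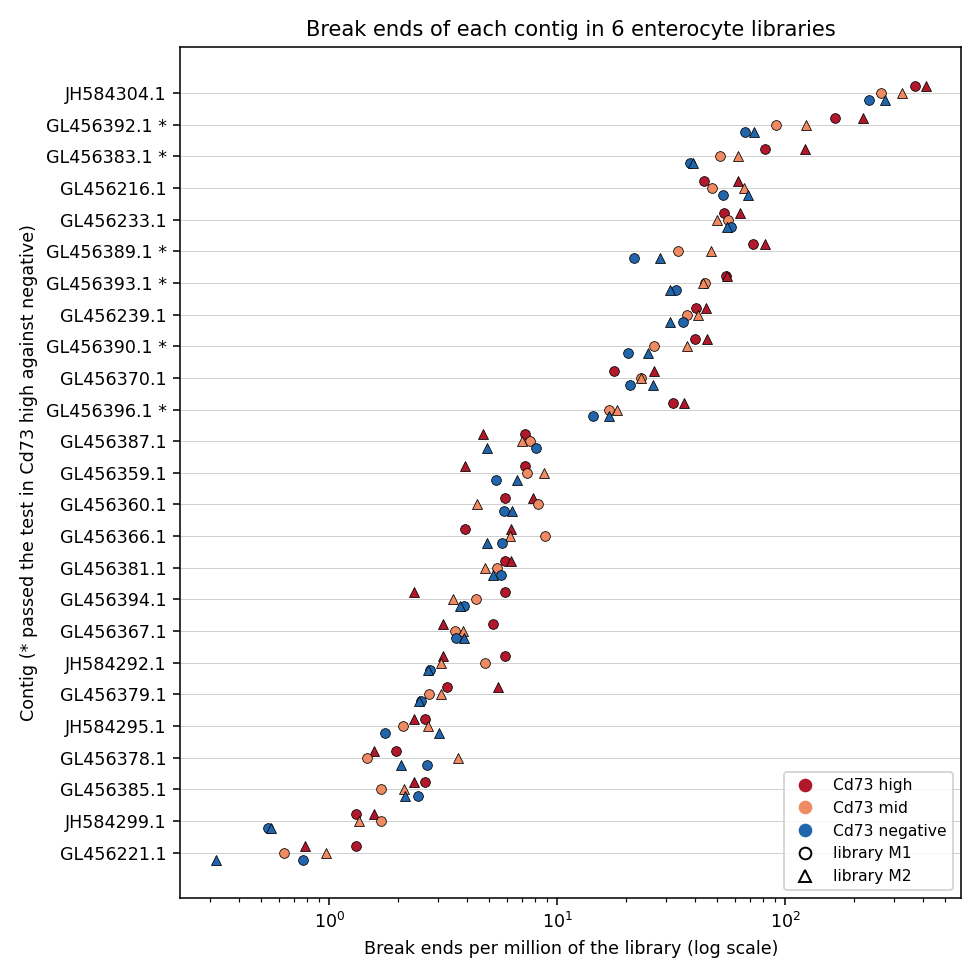
Break ends per 1000000 of the library on a log scale for the 25 contigs with break ends in all 6 libraries, ordered by mean, with Cd73 high above mid and negative in each row. A star marks the 6 contigs past the test in high against negative. The starred rows, such as GL456389.1 at 72.2 and 81.6 in high against 21.6 and 28.1 in negative libraries, have the Cd73 high libraries above the negative ones, and GL456233.1 and GL456216.1 have gates that overlap.

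**Figure D3:**
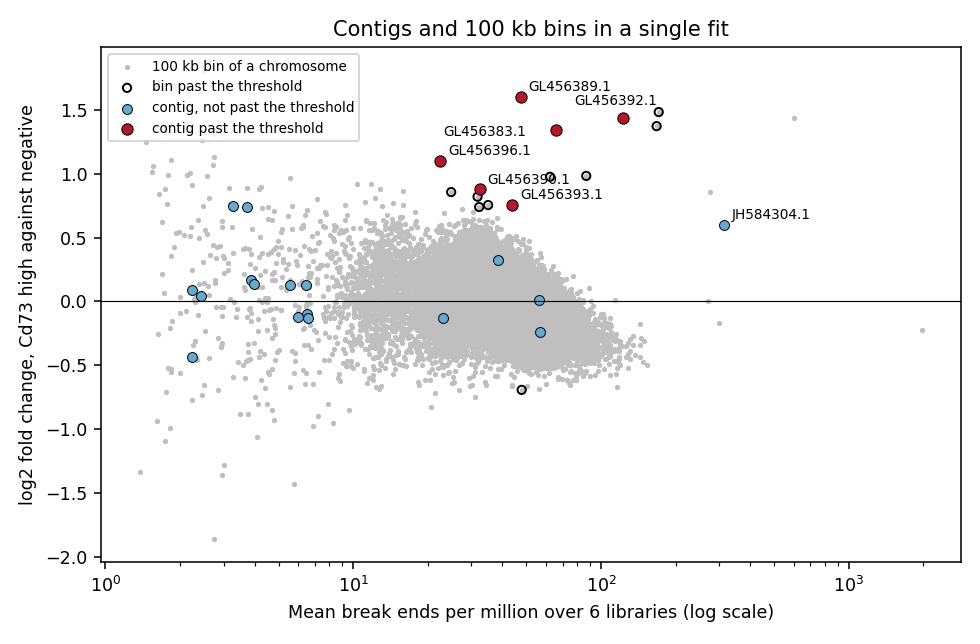
The log2 fold change of Cd73 high against negative libraries for 25116 features, by their mean break ends per 1000000 on a log scale. Grey points are 100 kb bins of chromosomes, ringed where past the threshold, and coloured points are the 23 tested contigs, red where past it. The 6 red contigs lie between 0.76 and 1.60, and JH584304.1 lies at 0.60 at a high mean.

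The mid gate was then set against each of the others. These comparisons share libraries with the first, so their values are given side by side and are not independent of it. In mid against negative, GL456383.1 and GL456389.1 rose, 2 of 23 contigs, where 0.0159% of features rose, and 0 contigs fell. The log2 fold changes were 0.54 for GL456383.1 (adjusted p = 0.0360 by edgeR) and 0.70 for GL456389.1 (adjusted p = 0.00369 by edgeR). DESeq2 called 0 contigs there, with 5 at an unadjusted p under 0.05. By edgeR 6 contigs were at an unadjusted p under 0.05, where 6.21% of all features were. In high against mid the 2 contigs that rose were again GL456383.1, at 0.80, and GL456389.1, at 0.90 (adjusted p = 0.00210 for each by edgeR), where 0.00796% of features rose. DESeq2 again called 0, with 5 at an unadjusted p under 0.05, and by edgeR 6 contigs were there, where 4.74% of all features were. Both calls of mid against negative, and those of high against mid, were also lost at equal depth and with 1 Mb bins.

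The next question was whether few positions carried the difference. The 10 positions with the most break ends in a library held 7.99% ± 0.113 of its contig break ends in the Cd73 high gate, 6.20% ± 0.169 in the mid gate and 6.53% ± 0.233 in the negative gate (SD, n = 2 each). With every library thinned to the same 1274750 break ends, they held 8.14% ± 0.0982 in the high gate, 6.11% ± 0.478 in the mid gate and 7.81% ± 1.12 in the negative gate (SD, n = 2 each). The high and negative ranges then overlapped, and both mid libraries lay below them. Thinning matched the total of each library and not its number of contig break ends. At full depth, 50% of the contig break ends were held by 460 positions in high, 826 in mid and 962 in negative libraries. The high libraries had 1244 and 1246 contig positions in all, against 5218 and 5236 in the negative libraries. As a share of the positions hit, the order was reversed, with 36.9% in high, 28.9% in mid and 18.4% in negative libraries.

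Over the pooled positions, the 10 with the highest mean EPM made up 41.0 EPM of the 446 EPM difference, or 9.19%, and 405 EPM remained without them. The 5 positions with the largest difference, chosen on that difference, made up 54.3 EPM, or 12.2%. At the other end, 9917 positions, 73.0% of all contig positions, held a single break end in the 6 libraries together. They made up 217 EPM, or 48.8% of the difference. These parts come from sets of very unlike size, 10 and 9917 positions. They do not say how much a dense position held against a sparse one.

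A few positions still behaved very differently from their neighbours. The position with most break ends in all, at 66829 on JH584304.1 (GRCm38, counted from 1, no strand given), held 8 and 10 break ends in the Cd73 high libraries, 43 and 51 in the mid libraries and 157 and 126 in the negative libraries. Its raw count thus followed depth more than steeply, with 6.55 EPM in high, 9.45 EPM in mid and 11.0 EPM in negative libraries. On the same contig, position 103574 held 30 and 20 break ends in high, 21 and 15 in mid, and 21 and 14 in negative libraries. That count hardly moved while depth rose 9.16 times, which made it 17.7 ± 2.82 EPM in high, 3.66 EPM in mid and 1.36 ± 0.352 EPM in negative libraries. The next base, 103573, did likewise, with 8 and 11 break ends in high, 11 and 5 in mid, and 6 in both negative libraries.

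GL456392.1 held such unlike positions side by side. Position 22776 held 12 break ends in both Cd73 high libraries, 1 and 4 in the mid libraries and 2 and 4 in the negative libraries. Position 22778 held 3 and 4 in high, 10 and 31 in mid, and 28 and 46 in negative libraries. At position 22785 the counts were 7 in both high libraries, 22 and 25 in mid, and 76 and 71 in negative libraries, close to proportional with depth at 5.04 EPM in high, 4.73 EPM in mid and 5.73 EPM in negative libraries. The largest difference of all single positions lay at 23238 on this contig, with 21 and 29 break ends in high, 21 and 10 in mid, and 17 and 5 in negative libraries, or 18.3 ± 6.35 EPM in high, 3.17 EPM in mid and 0.850 ± 0.640 EPM in negative libraries. On GL456389.1, position 10642 held 7 and 9 break ends in high, 2 and 1 in mid, and 2 in both negative libraries.

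**Figure D4:**
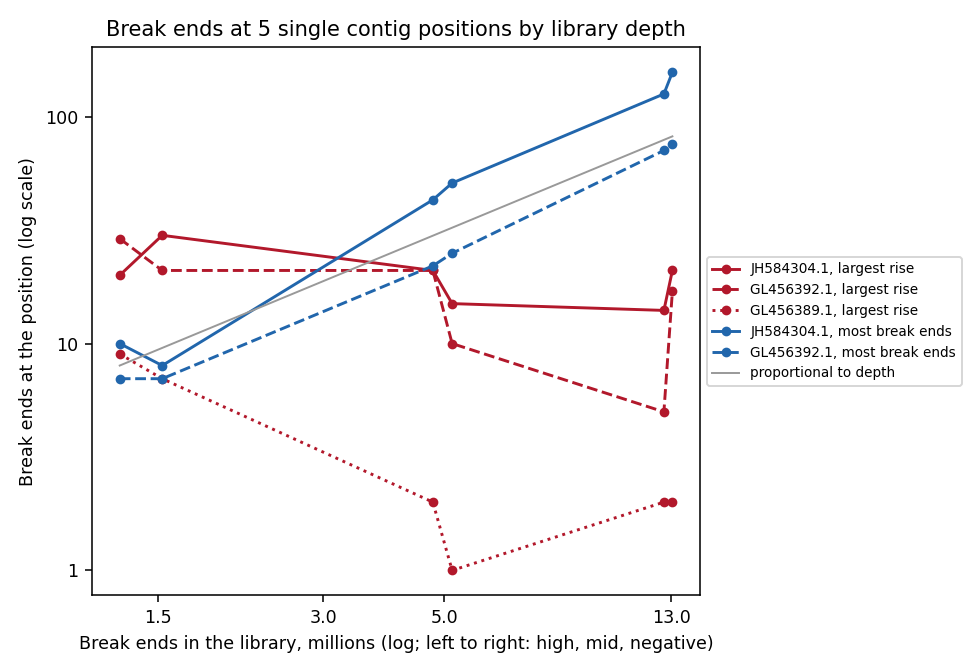
Break ends at 5 single positions against all break ends of the library, both on log scales. Red lines are the positions with the largest difference of Cd73 high over negative on 3 contigs, chosen on that difference, blue lines the positions with most break ends in the negative libraries on 2 contigs, and the grey line is proportional to depth. The blue lines climb with depth, to 157 break ends on JH584304.1, and the red lines are level or lower in the deep negative libraries, such as 30 and 20 break ends in high against 21 and 14 in negative libraries on JH584304.1.

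Positions whose raw count was at least as high in the shallow Cd73 high libraries as in the deep negative ones were counted over all positions with at least 10 break ends in the 6 libraries together. On contigs these were 23 of 321, or 7.17%, against 352 of 91557, or 0.384%, on chromosomes, and 0.411% over all such positions. Of the 23, 8 lay on JH584304.1, 7 on GL456392.1, 4 on GL456383.1, 3 on GL456389.1 and 1 on GL456393.1. By EPM, 59 of the 321 contig positions, or 18.4%, were higher in high than in negative libraries without overlap, where 5.37% of all such positions were. In the other direction 118, or 36.8%, were lower without overlap, where 54.3% of all such positions were. Most break ends in the sum came from the deep libraries, so the limit of 10 favours positions dense in the negative gate.

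Contig positions also recurred between libraries far more often than chromosomal ones, in every gate. The contigs with most break ends were also denser. In the high gate JH584304.1 held 3.68 and GL456392.1 8.17 EPM per kilobase, against 0.375 on the chromosomes. How much recurrence density alone would give was not tested. At equal depth, 14.5% of the contig positions of Cd73 high M1 were hit in M2 as well, against 13.8% in the mid gate and 14.8% in the negative gate. On the chromosomes these shares were 2.12% in the high gate, 2.83% in the mid gate and 4.05% in the negative gate. Contig break ends at positions with more than 1 break end in the same thinned library were counted as well. They made up 27.8% and 29.3% in high, 22.0% and 27.4% in mid, and 23.4% and 25.4% in negative libraries. Chromosomal ones made up 4.66% to 6.38% over the 6 libraries. The share of M1 positions hit in M2 thus differed little between gates. The share at positions with more than 1 break end was highest in both high libraries. Thinned high libraries also held more contig positions, 1052 and 1246, against 790 and 932 in mid and 684 and 771 in negative libraries.

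Windows of 1 kb along the contigs showed an intermediate picture. Of 1002 windows with break ends, the 5 with the largest difference, chosen on it, made up 190 EPM, or 42.7% of the net difference. The mean difference was positive in 422 of the 1002. Without overlap, 133 were higher and 256 lower in high than in negative libraries. A window with 0 break ends in both high libraries counted as lower when both negative libraries held any. On GL456389.1 the window from 25001 to 26000 held 0 in both high libraries and 2 and 3 in negative libraries. A single break end was worth 0.720 EPM in high and 0.0780 EPM in negative libraries, so such windows do not show a fall. How many of the 256 were of this kind was not counted. The net difference sums positive and negative differences, and the counts of windows depend on depth. Windows of 1 kb on chromosomes were not counted. The window from 68001 to 69000 on JH584304.1, the densest of all, held 89.9 and 87.1 EPM in Cd73 high, 48.1 and 59.6 EPM in mid, and 36.0 and 40.5 EPM in negative libraries. On GL456392.1 the window from 22001 to 23000 held 77.1 ± 5.18 EPM in high, 42.3 EPM in mid and 30.2 ± 4.51 EPM in negative libraries, and the one from 23001 to 24000 held 53.1 ± 20.3 EPM in high, 21.0 EPM in mid and 12.7 EPM in negative libraries. The high libraries lay above the mid and negative ones in all 3 windows, and the mid and negative ranges overlapped in the window from 22001 to 23000.

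Near the end of JH584304.1, the window from 103001 to 104000 held 60 and 49 break ends in Cd73 high, 61 and 60 in mid, and 79 and 69 in negative libraries, so that 38.9 ± 0.650 EPM in high stood against 12.2 EPM in mid and 5.77 ± 0.406 EPM in negative libraries. On GL456389.1 the window from 12001 to 13000 was flat in raw counts, with 19 and 16 break ends in high, 18 and 22 in mid, and 17 and 21 in negative libraries. Other windows of JH584304.1 went the other way. The window from 66001 to 67000 held 18.4 and 15.7 EPM in high, 19.9 and 21.1 EPM in mid, and 23.7 and 21.8 EPM in negative libraries, with the gates apart. The 5 windows with the largest difference made up 93.5% of the net difference of JH584304.1, which has 82 windows with break ends, and 41.8% of that of GL456383.1, which has 35. The difference was positive in 46 of these 82 windows and in 30 of these 35.

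**Figure D5:**
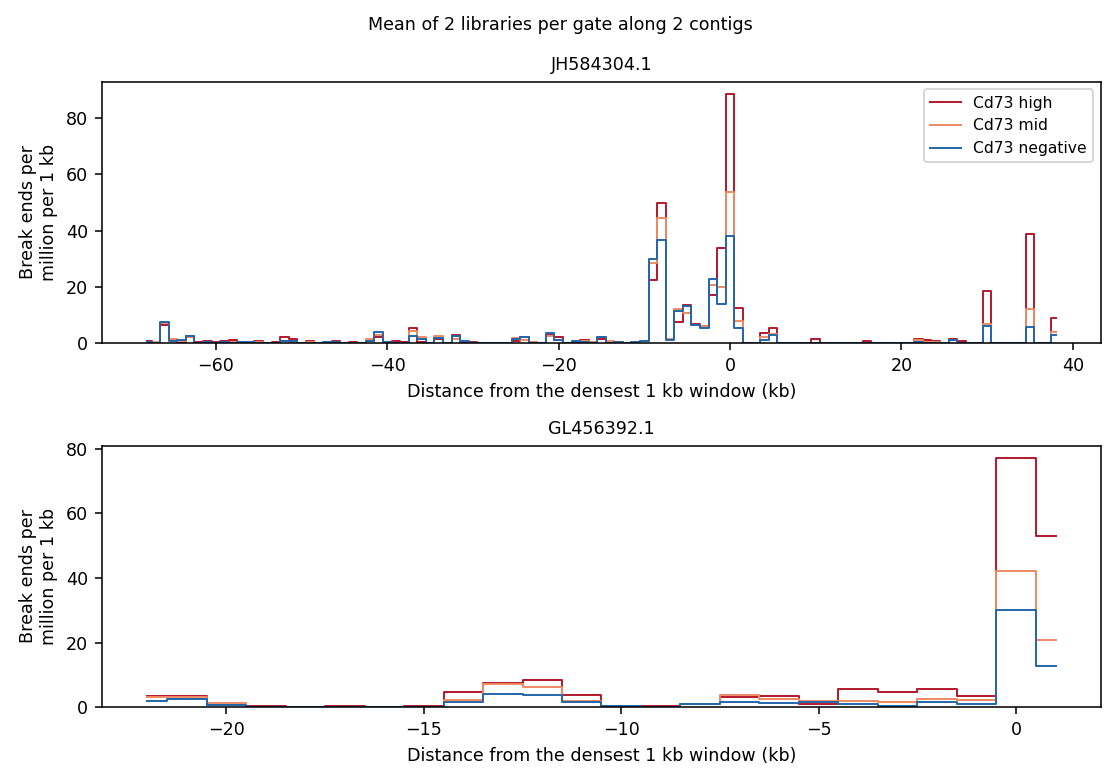
Mean break ends per 1000000 in windows of 1 kb, by Cd73 gate, against the distance in kilobases from the densest window, along JH584304.1 (top) and GL456392.1 (bottom). Lines are means of 2 libraries. On JH584304.1 the densest window holds 88.5 in Cd73 high against 38.2 in negative libraries, the windows left of it include some that are higher in negative libraries, and a separate peak of 38.9 in high against 5.77 in negative libraries lies 35 kb to its right.

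A second edgeR fit over windows of 10 kb asked which stretches of contigs changed. Of 73 contig windows tested, 4 rose and 0 fell in Cd73 high against negative, where 0.00266% of the 225423 windows rose and 0 fell. The 4 were among 6 windows that rose in all. At an unadjusted p under 0.05, 24 contig windows were higher and 2 lower, where 6.14% of all windows lay in either direction, and DESeq2 called 8 higher and 0 lower. The strongest was the last window of JH584304.1, from 100001 to 110000, with 71 and 63 break ends in high, 75 and 86 in mid, and 108 and 114 in negative libraries. It averaged 48.0 ± 2.01 EPM in high, 16.2 EPM in mid and 8.66 ± 0.550 EPM in negative libraries (log2 fold change 2.44, adjusted p = 5.17e-09 by edgeR).

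The window before it, from 90001 to 100000 on the same contig, held 32 and 36 break ends in high, 39 and 63 in mid, and 96 and 113 in negative libraries (log2 fold change 1.55, adjusted p = 0.0373 by edgeR). The densest window of JH584304.1, from 60001 to 70000, averaged 237 ± 20.8 EPM in high, 184 EPM in mid and 155 ± 8.05 EPM in negative libraries and did not pass (log2 fold change 0.58, adjusted p = 0.911 by edgeR). On JH584304.1 the windows from 90001 on thus passed the test, and the dense one, with most of its break ends, did not. The dense window still held the larger mean difference, 82.2 EPM of the 138 EPM of the contig. The window from 100001 to 110000 held 39.3 EPM and the one from 90001 to 100000 held 16.5 EPM. In the dense window the high libraries, at 222 and 252 EPM, lay above the negative ones, at 149 and 161 EPM, with an SE of 0.50. The difference between these windows was not tested.

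The other windows that rose were on GL456389.1 from 10001 to 20000 (log2 fold change 1.89, adjusted p = 0.000638 by edgeR) and on GL456383.1 from 1 to 10000 (log2 fold change 1.62, adjusted p = 0.0277 by edgeR). On GL456383.1 all 4 windows were positive, between 1.03 and 1.62. On GL456393.1 the first window had a log2 fold change of 1.30 (adjusted p = 0.405 by edgeR), and its 5 other windows lay between -0.11 and 0.96. The median over the 73 contig windows was 0.36, and 33 were higher without overlap and 8 lower, where 19.9% and 20.0% of all windows were. In mid against negative, edgeR called 0 contig windows in either direction, where 0.000444% of all windows rose, and DESeq2 called 0. At an unadjusted p under 0.05, 9 contig windows were higher and 0 lower, where 4.44% of all windows lay in either direction. In high against mid, edgeR called 0, and DESeq2 called 1. At an unadjusted p under 0.05, 15 contig windows were higher and 2 lower, where 4.93% of all windows lay in either direction.

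No gene could be placed on the contigs that rose. The RefSeq gene table of GRCm38.p6 lists 17 genes on sequences of unknown place without naming the contig. Of these, 13 are pseudogenes, 4 are long non-coding RNA genes and 0 are protein-coding.

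The calls rested in part on single libraries. Without Cd73 high M2, the contigs past the test in high against negative were GL456383.1 and GL456389.1 alone, and without Cd73 high M1 they were these 2 and GL456392.1. Without negative M1 there were 5, all but GL456390.1. With all libraries thinned to equal depth 3 contigs were called, and 11 contigs could be tested there. In mid against negative, 0 contigs passed without mid M2 or without negative M1, and 1 without negative M2. In high against mid, 0 passed without high M2, and 1 without high M1 or without mid M1. The number of 10 kb contig windows called in high against negative was 1 in place of 4 when any single high or negative library was left out.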

How the data were processed

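Each deposited file lists, for a single library, chromosome, position and the count of break ends at that base. Per the labels' protocols, ends were blunted, ligated to adapters and amplified by in vitro transcription. Reads were aligned with BWA to GRCm38, per the submitters' processing notes. The mapping filter, the treatment of reads with several matches, and the use of molecular identifiers in the count were not given in the sources used here, so limits cover counting error only. No contig position had more than 1 line in a file.

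Contigs and lists were chosen with earlier results of these data known. Counts were summed per contig, per 1 kb and 10 kb window and per 100 kb bin of chromosomes 1 to 19, X and Y. The quasi-likelihood F test of edgeR 4.0.16, run in R 4.3.3 after filterByExpr and TMM scaling, was applied to a single fit of 3 groups without mitochondrial DNA. The threshold was a p of 0.05 after Benjamini-Hochberg adjustment. The tests were also run on simulated counts drawn with the same spread for every feature. That run does not cover contigs with dense positions. EPM used all break ends of a library. Contigs named were those called, the 10 with the highest mean and the 5 with the largest difference each way. Positions named were the 10 densest and the 5 with the largest difference. Contig classes follow the assembly's naming. Alternatives comprised thinning, each position counted once, omission of dense positions or of JH584304.1, 1 Mb bins, omission of the filter, scaling by library size, DESeq2 1.42.0, the replicate number as a block, and omission of each library in turn. Leaving out the densest 1 kb of each contig was chosen after seeing the data. Python 3.11.15, numpy 2.4.6, pandas 2.3.3 and matplotlib 3.10.9 were used.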

Additional observations from a re-analysis of the deposited data

How the results depend on the processing

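With 2 libraries per gate, the limits are few libraries and depth, which was lowest in Cd73 high. The difference in total, 446 EPM high minus negative, was 308 EPM without JH584304.1 and 301 EPM without the densest 1 kb of each contig, and 351 to 540 EPM with a library left out. Mid minus negative was 67.9 to 210 EPM and high minus mid 213 to 401 EPM with a library left out. Contigs called in high against negative numbered 3 at equal depth and 2 to 6 with a library left out. In mid against negative they numbered 0 with DESeq2, at equal depth and with 1 Mb bins, 4 with a replicate block, and 0 to 3 with a library left out. In high against mid they numbered 0 with DESeq2, at equal depth and with 1 Mb bins, 4 with each position counted once or with a replicate block, and 0 to 3 with a library left out. Windows of 10 kb called in high against negative numbered 8 with DESeq2, 9 with each position counted once, 7 at equal depth, 9 with a replicate block, and 1 to 5 with a library left out. In high against mid they numbered 1 with DESeq2, library size scaling, each position counted once or a replicate block, and 2 at equal depth. The libraries were not treated as paired, since the labels do not say what M1 and M2 share. Deviations of same-numbered libraries from their gate means correlated at -0.0115 (high and negative), 0.333 (mid and negative) and 0.00722 (high and mid), so the block shows only how counts of calls move. In each case the cause was not tested.

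GL456383.1 and GL456389.1 passed the test of high against negative in all 16 settings run, GL456392.1 in 15, GL456393.1 and GL456396.1 in 13 and GL456390.1 in 11. Contigs that did not pass turned sign in places. The log2 fold change of GL456216.1 was 0.00759 with each position counted once. That of GL456233.1 was -0.0797 counted once, -0.0836 at equal depth, -0.0214 without the densest 1 kb, -0.00862 without negative M2, and -0.0999 to 0.127 with a library left out. That of GL456359.1 was 0.182 counted once, 0.156 without the densest 1 kb, 0.0764 without negative M2, and -0.65 to 0.241 with a library left out. That of GL456370.1 was 0.142 counted once, 0.0567 without negative M2, and -0.43 to 0.150 with a library left out. That of GL456387.1 was 0.126 without high M2, and -0.50 to 0.252 with a library left out. At full depth the densest position held 1.88%, 1.15% and 1.62% of contig break ends in high, mid and negative libraries. The 100 densest held 24.3%, 20.1% and 21.1%, and the 1000 densest 84.4%, 54.3% and 50.9%. The high libraries held 1244 and 1246 contig positions in all, so their 1000 densest were most of them. At equal depth the 100 densest held 26.2% and 24.0% in high, 24.9% and 25.7% in mid, and 28.2% and 27.5% in negative libraries. The 10 densest held 8.14% in high and 7.81% in negative libraries at equal depth, and 7.91% to 8.07%, 6.08% to 6.31% and 6.36% to 6.69% in high, mid and negative libraries with a library left out.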
